A study of Mus musculus with 4 samples.

Results

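The 60 genes described here encode the ephrins and their Eph receptors, the semaphorins with their plexin and neuropilin receptors, and the Slit ligands with their Robo receptors. They were chosen by symbol alone, from 23924 genes with a value in tail tip fibroblasts (TTF) of a mouse line that carries *Xist* in an autosome. The matches comprised 8 ephrins, 14 Eph receptors, 20 semaphorins, 9 plexins, 2 neuropilins, 3 Slits and 4 Robo receptors.

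These proteins are the classical guidance cues of growing axons and vessels, and fibroblasts use them at cell borders, in migration and in the shape of the actin skeleton. Ephrins are anchored in the membrane and bind Eph receptor tyrosine kinases of a neighbouring cell, with the A class tied by a lipid anchor and the B class spanning the membrane. Class 3 semaphorins are secreted and mostly bind a neuropilin that pairs with a plexin as the signalling subunit, whereas most other semaphorins bind plexins directly and *Sema3e* binds *Plxnd1* without a neuropilin. Slits are large secreted proteins of the extracellular matrix that bind Robo receptors and repel the cells that carry them.

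RNA was sequenced from 2 WT and 2 TG libraries. The TG cells were Tg2087/+ and carried TgBAC8, a piece of the X-inactivation center with *Xist* under its own promoter, and the WT cells were their +/+ littermates of the line C57BL/6J-TgBAC8-2087. All cells were male, and all had been immortalized with SV40 large T and were tetraploid. Nothing in the labels tells whether replicate libraries stem from separate animals or lines, so the p-values below measure the spread between these libraries, which may be technical. *Xist* stood at 0 and 0.108 FPKM in WT 1 and WT 2 and at 2.31 and 2.28 FPKM in TG 1 and TG 2. FPKM scales the fragments of a gene by its length and by the library total, so levels can be set side by side between genes. Whole reads worked out from the FPKM values gave between 9465712 reads in WT 1 and 14639946 in WT 2, and the 60 genes together held between 0.196% and 0.203% of the reads of a library.

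The fibroblast label was checked against 13 marker genes. *Vim*, *Thy1*, *Col1a1* and *Col1a2* were abundant in every library, the lowest value being 207 FPKM for *Col1a2* in TG 1, while *Lum* was listed at 0 in all 4 libraries, *Dcn* lay between 0 and 0.878 FPKM and *Pdgfra* between 0.0999 and 1.13 FPKM. *Fn1* stood at 568 and 704 FPKM in WT against 267 and 447 FPKM in TG, and *Fap* was at most 0.0802 FPKM. Of the 13 markers 10 were tested and 2 of them, *Col1a1* and *Pdgfrb*, were lower in TG at a limma adjusted p under 0.05. Of all tested genes, 1.54% were lower at that level. On the whole reads, limma's voom method had 4 markers lower at an adjusted p under 0.05, *Col1a1*, *Col1a2*, *Pdgfrb* and *Fn1*. It had 1 higher, *Pdgfra*, against 4.33% of all genes lower and 3.49% higher. The summed level of 8 endothelial markers lay between 0.486 and 1.05 FPKM in WT and between 0.036 and 0.260 FPKM in TG, with *Emcn* and *Tie1* at 0 throughout. Neuron markers summed to between 0.068 and 0.323 FPKM, and markers of Schwann cells and melanocytes to between 0.054 and 0.311 FPKM in WT and between 0.689 and 0.854 FPKM in TG, with *Sox10* and *Tyr* at 0. Of 7 keratinocyte markers *Krt5*, *Krt14* and *Krt1* were at 0 and the sum lay between 1.92 and 3.17 FPKM. Of 7 immune markers *Ptprc*, *Adgre1*, *Cd3e* and *Itgam* were at 0 and the sum, mostly *Cd68*, lay between 5.12 and 12.8 FPKM. Of 7 muscle markers *Myod1*, *Myf5*, *Myog*, *Pax7* and *Ckm* were at 0, and the sum, mostly *Acta1*, was 11.5 and 9.99 FPKM in WT against 5.45 and 5.37 FPKM in TG. Whether other cell types have a part in any difference below was not tested. In bulk RNA, fewer cells that express a gene and less RNA of it per cell cannot be told apart.

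In these fibroblasts 39 of the 60 genes reached a mean of 0.5 FPKM, the level required for a test, and 9 were listed at 0 in all libraries. The most abundant were *Plxnb2*, a plexin for class 4 semaphorins, with 44.3 ± 4.54 FPKM in WT (mean ± SD, n = 2), *Efnb1* at 43.4 ± 5.13 FPKM and *Epha2* at 38.8 ± 4.26 FPKM. They were followed by *Ephb4* at 33.2 ± 2.24 FPKM and *Nrp2* at 32.4 ± 5.85 FPKM. Neighbours in this order differed by less than the sum of their SDs. The ephrins, Eph receptors, semaphorins, plexins, neuropilins and Slits each had a member above 5 FPKM in WT, while the highest Robo receptor, *Robo1*, averaged 1.41 ± 0.561 FPKM (SD, n = 2).

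**Figure D1:**
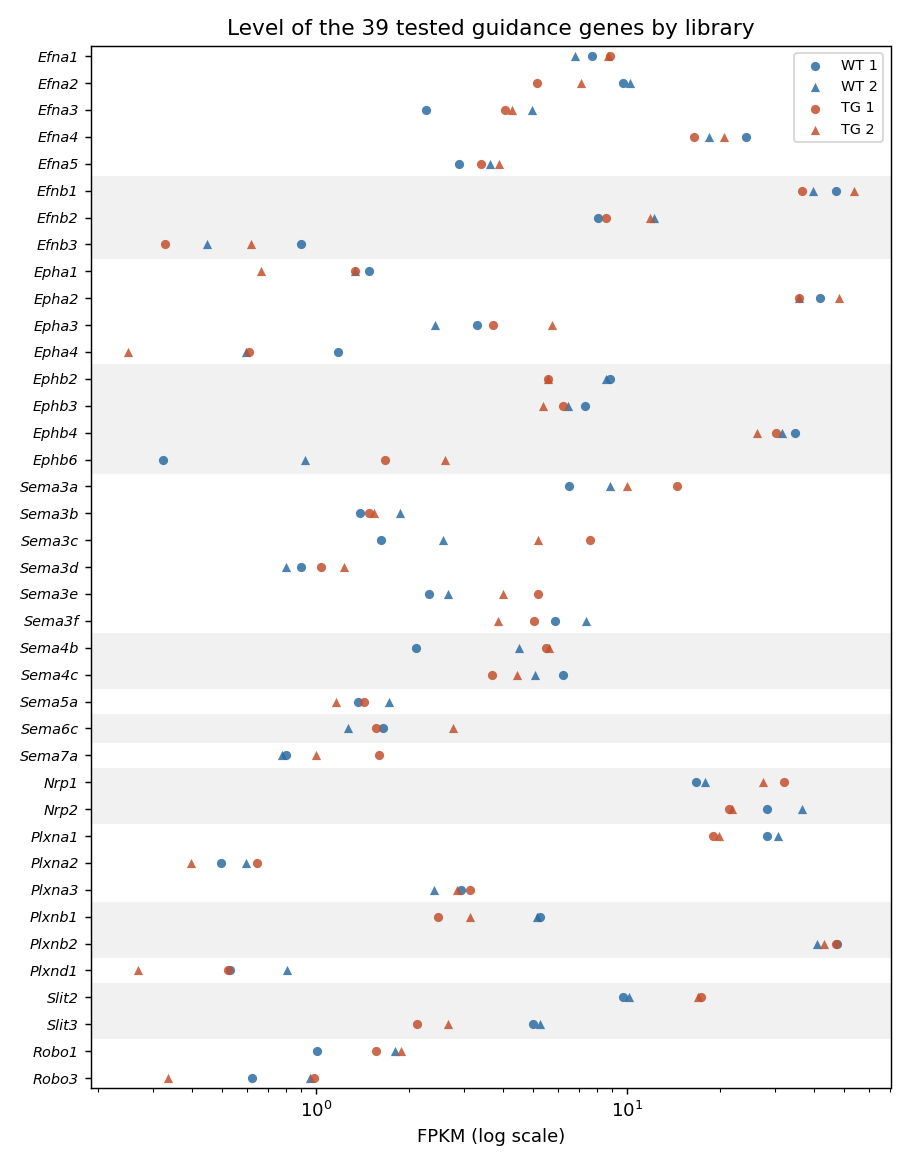
FPKM (log scale) of the 39 tested guidance genes, 1 row per gene and 1 point per library, with WT in blue, TG in red, circles for library 1 and triangles for library 2; bands separate the families. *Nrp1*, *Slit2* and *Sema3c* have both TG points to the right of both WT points, *Nrp2*, *Plxna1* and *Slit3* have them to the left, and the points of *Plxnb2* and *Efnb1* overlap.

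In TG, the ligand *Sema3c* was 3.05 times as abundant as in WT and the neuropilin *Nrp1* 1.72 times, and these were the 2 guidance genes with an adjusted p under 0.05. Several close relatives pointed in opposite directions, *Nrp1* and *Nrp2*, *Slit2* and *Slit3*, and *Sema3c* and *Sema3f*, while the most abundant ephrin, Eph receptor and plexin had overlapping groups. These pairs were picked after their values had been seen, and *Sema3a*, *Sema3d* and *Sema3e* pointed the same way as *Sema3c*. The limma adjusted p was 0.142 for *Nrp2*, 0.0581 for *Slit2*, 0.0689 for *Slit3* and 0.271 for *Sema3f*. The test was limma on log2(FPKM + 0.5) across the 11524 genes with a mean of at least 0.5 FPKM. The study's thresholds, an adjusted p under 0.01 and a 1-unit log2 difference, were passed by none of the 39 guidance genes in either direction. Over all tested genes, 0.607% passed them as higher in TG and 0.469% as lower. At an adjusted p under 0.05, 2 guidance genes were higher in TG, *Sema3c* and *Nrp1*, and none was lower, where 2.59% of all tested genes were higher and 1.54% were lower. At an unadjusted p under 0.05, 7 were higher and 6 were lower, against 12.7% and 6.88% of all tested genes. On the recovered reads, voom passed *Sema3c* as higher and *Slit3* as lower at the thresholds of the study, where 1.08% and 1.29% of all genes passed, and at an adjusted p under 0.05 it passed 3 as higher and 5 as lower, against 3.49% and 4.33% of all. The groups did not overlap for 22 of the 39 genes, 11 higher and 11 lower in TG, against 30.2% higher and 20.3% lower of all tested genes. The median log2 fold change of the 39 genes was 0.017, with 20 positive and 19 negative values. That of all tested genes was 0.071, with 57.5% of them positive.

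**Figure D2:**
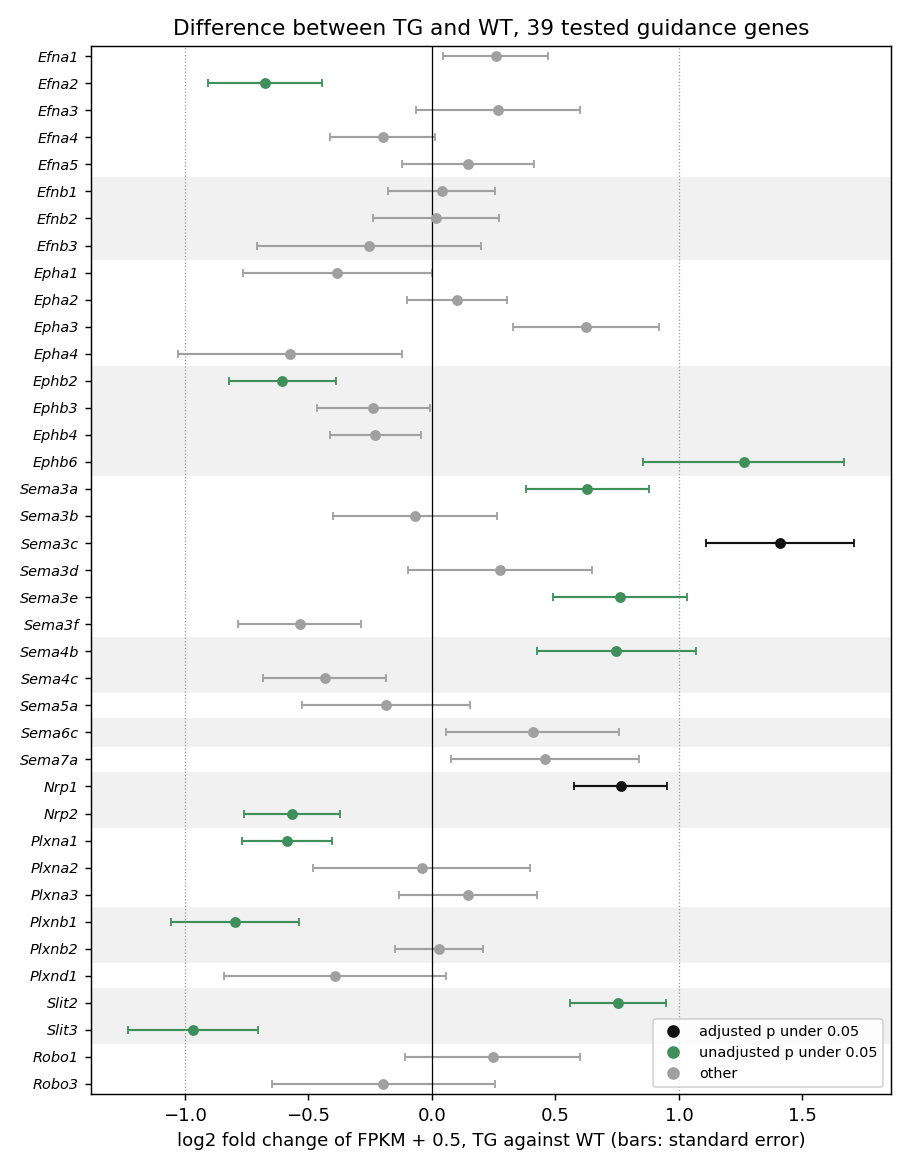
Log2 fold change of FPKM + 0.5 between TG and WT for the 39 tested guidance genes, with bars for the standard error, black for an adjusted p under 0.05 and green for an unadjusted p under 0.05; dotted lines mark a fold change of 1 in size. *Sema3c* and *Nrp1* are the black points, *Ephb6* lies beyond 1 with a wide bar, and *Slit3* lies just inside -1.

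The class 3 semaphorins, the secreted ligands of the neuropilins, held the larger of the 2 calls at an adjusted p under 0.05. *Sema3c*, a ligand that can use either neuropilin and is known for its part in the outflow tract of the heart, stood at 1.63 and 2.57 FPKM in WT 1 and WT 2 and at 7.63 and 5.17 FPKM in TG 1 and TG 2. Both TG libraries lay above both WT libraries. The TG libraries lay further apart in FPKM than the WT libraries, but not as a ratio of the higher to the lower. The mean rose from 2.10 ± 0.669 to 6.40 ± 1.73 FPKM (SD, n = 2 each), a ratio of 3.05 (log2 difference 1.41, standard error 0.30, limma adjusted p = 0.0281). Under the alternatives the adjusted p of *Sema3c* lay between 0.0018, with voom, and 0.156, and its log2 fold change between 1.14 and 1.67. Without WT 1, WT 2 or TG 1 the limma adjusted p of *Sema3c* was 0.154, 0.130 and 0.140, and without TG 2 it was 0.0279.

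*Sema3a*, the collapsin that repels axons through *Nrp1*, stood at 6.53 and 8.86 FPKM in WT against 14.5 and 10.0 FPKM in TG. *Sema3e*, the ligand of *Plxnd1*, stood at 2.31 and 2.67 FPKM in WT against 5.20 and 4.0 FPKM in TG. For both genes the TG libraries lay above the WT libraries, but the limma adjusted p was 0.195 for *Sema3a* (log2 fold change 0.63, standard error 0.25) and 0.152 for *Sema3e* (0.76, standard error 0.27). *Sema3d* had 0.895 and 0.804 FPKM in WT against 1.04 and 1.23 FPKM in TG, a log2 fold change of 0.28. *Sema3f*, which signals through *Nrp2*, pointed the other way, with 5.89 and 7.39 FPKM in WT against 5.03 and 3.85 FPKM in TG (log2 fold change -0.53, standard error 0.25, limma adjusted p = 0.271). *Sema3b* had overlapping groups, at 1.39 and 1.86 FPKM in WT against 1.49 and 1.54 FPKM in TG. The 7 class 3 genes together gave 18.7 and 24.3 FPKM in WT against 34.9 and 25.8 FPKM in TG. TG 2 thus lay near WT 2 in the sum, and the log2 ratio of the genotype means, 0.50, had an SD of 0.41.

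The co-receptors of these ligands pointed in opposite directions. *Nrp1*, which binds *Sema3a* and also vascular endothelial growth factor, stood at 16.7 and 17.8 FPKM in WT against 32.0 and 27.5 FPKM in TG. It rose in both TG libraries (log2 difference 0.76, standard error 0.19, limma adjusted p = 0.0499). That p lay at the edge of the threshold of 0.05: it was 0.0109 with voom, it ranged up to 0.233 over the alternatives, and with any 1 library left out it lay between 0.0924 and 0.233. *Nrp2*, the preferred co-receptor of *Sema3f*, stood at 28.3 and 36.5 FPKM in WT against 21.3 and 21.8 FPKM in TG. Its groups did not overlap, but the WT libraries differed from each other by more than the lower WT library differed from TG, and the limma adjusted p was 0.142 (log2 fold change -0.57, standard error 0.20), with 0.0192 from voom at the low end of the alternatives and 0.505 at the high end. The sum of both neuropilins overlapped between the genotypes, at 45.0 and 54.4 FPKM in WT against 53.2 and 49.3 FPKM in TG.

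Because the scaling of a library cancels in the ratio of 2 of its genes, the ratio of *Nrp1* to *Nrp2* was taken within each library, a ratio chosen after its values had been seen. It was 0.591 and 0.488 in WT and 1.5 and 1.26 in TG, so *Nrp2* was the more abundant neuropilin in both WT libraries and *Nrp1* in both TG libraries. The ratio of the means was 2.56, and the log2 difference was 1.36, or between 1.22 and 1.5 with 1 library left out. The ratio of *Sema3c* to *Sema3f*, chosen in the same way, was 0.276 and 0.348 in WT and 1.52 and 1.34 in TG. *Sema3a* exceeded *Sema3f* by 1.11 and 1.2 times in WT and by 2.88 and 2.60 times in TG. No test was run on these ratios, since with 2 libraries on either side the smallest p of an exact permutation test is 0.333.

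**Figure D3:**
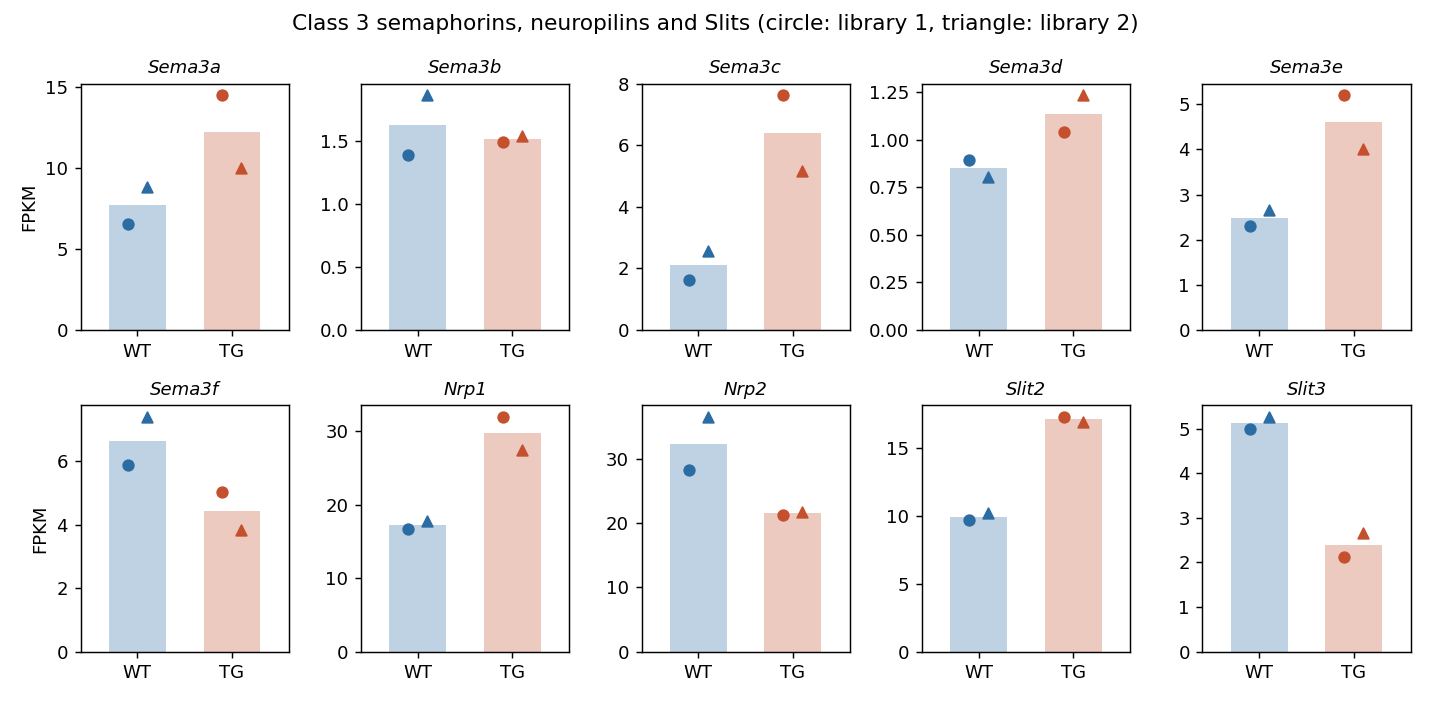
FPKM of the class 3 semaphorins, the neuropilins and the Slits in WT (blue) and TG (red), with bars for the genotype mean, circles for library 1 and triangles for library 2; each panel has its own axis, which starts at 0. *Sema3a*, *Sema3c*, *Sema3d*, *Sema3e*, *Nrp1* and *Slit2* have both TG points above both WT points, *Sema3f*, *Nrp2* and *Slit3* have them below, and *Sema3b* overlaps.

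The bases before the start of genes of these systems are shown for the neuropilins, which pointed in opposite directions, for *Sema3a* and *Sema3e*, which lie side by side, and for *Slit2*. They come from the RefSeq promoter table (GRCm38.p6, the assembly of mm10), run 5′ to 3′ on the + strand up to the RefSeq start, and stop before the first base of any GENCODE exon of the gene. Capitals mark each GC box (GGGCGG or, on the other strand, CCGCCC), the letters that Sp1-type factors are known to bind, and boxes that share bases run together.
Nrp1, chr8:128358823-128359072, inside an intron of a GENCODE transcript that starts further upstream: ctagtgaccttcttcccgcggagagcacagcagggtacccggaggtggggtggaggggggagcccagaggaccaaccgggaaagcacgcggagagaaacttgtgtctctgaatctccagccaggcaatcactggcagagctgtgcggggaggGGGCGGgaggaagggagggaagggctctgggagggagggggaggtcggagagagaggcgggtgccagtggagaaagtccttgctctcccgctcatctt
Nrp2, chr1:62703067-62703284: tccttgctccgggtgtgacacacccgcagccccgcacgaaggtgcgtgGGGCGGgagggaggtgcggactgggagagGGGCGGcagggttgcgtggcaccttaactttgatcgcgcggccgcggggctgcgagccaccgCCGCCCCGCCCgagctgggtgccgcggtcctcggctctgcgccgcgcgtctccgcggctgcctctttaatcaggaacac
Sema3a, chr5:13396534-13396783, inside an intron of a GENCODE transcript that starts further upstream: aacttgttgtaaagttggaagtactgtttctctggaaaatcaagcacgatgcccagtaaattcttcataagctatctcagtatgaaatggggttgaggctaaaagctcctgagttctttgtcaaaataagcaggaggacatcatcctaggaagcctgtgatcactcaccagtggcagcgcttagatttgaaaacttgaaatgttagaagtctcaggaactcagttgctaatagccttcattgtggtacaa
Sema3e, chr5:14025026-14025275: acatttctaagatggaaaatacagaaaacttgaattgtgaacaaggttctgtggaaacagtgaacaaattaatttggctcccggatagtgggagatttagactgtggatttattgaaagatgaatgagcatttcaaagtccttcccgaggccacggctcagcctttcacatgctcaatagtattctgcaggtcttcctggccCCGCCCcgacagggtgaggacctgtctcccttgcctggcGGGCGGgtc
Slit2, chr5:47982905-47983137: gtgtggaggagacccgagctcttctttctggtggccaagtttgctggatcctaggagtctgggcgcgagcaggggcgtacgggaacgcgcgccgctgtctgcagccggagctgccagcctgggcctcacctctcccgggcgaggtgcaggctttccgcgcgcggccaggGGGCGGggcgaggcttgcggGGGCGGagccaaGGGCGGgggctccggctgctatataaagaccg

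The *Nrp2* sequence held 4 GC boxes and 28 CpG sites and that of *Nrp1* 1 box and 11 sites. *Slit2* had 3 boxes, 23 CpG sites and 1 TATA motif (TATAAA, either strand), *Sema3e* 2 boxes and 7 sites, and *Sema3a* no box and 2 sites. In the 250 bases before the RefSeq start, 32.7% of 32851 windows of all genes held a GC box, and 49 of the 69 windows of 53 guidance genes did. The median was 15 CpG sites over the guidance windows and 6 over all windows. TATA motifs were in 2 of the 69 windows, against 12.4% of all. A match of letters is a description and no evidence that a factor binds there. *Plxna1*, *Plxna4*, *Efnb3*, *Sema3b*, *Sema3f*, *Sema6a* and *Slit1* had no entry.

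The plexins are the signalling subunits for semaphorins. *Plxna1*, the A-class plexin that works with neuropilins, made up between 83.3% and 90.9% of the summed A-class level. It stood at 28.2 and 30.6 FPKM in WT against 18.9 and 19.8 FPKM in TG, which gave a log2 difference of -0.59 (standard error 0.18) and a limma adjusted p of 0.109. Voom gave an adjusted p of 0.0129 for *Plxna1*, the lowest of its alternatives, of which the highest was 0.371. Of the 9054 exonic bases of *Plxna1*, 970 are shared with *Gm26811* on the opposite strand, and whether the counting used strand is not stated. Shorter overlaps with other genes affect *Plxnb1* (257 bases), *Efna3* (344), *Efna4* (168), *Epha1* (236), *Sema4c* (334), *Nrp1* (80) and *Ephb4* (33). *Plxnb1*, the receptor of *Sema4d*, stood at 5.28 and 5.16 FPKM in WT against 2.48 and 3.13 FPKM in TG (log2 fold change -0.80, standard error 0.26, limma adjusted p = 0.120). The WT libraries agreed closely, both TG libraries lay far below them, and the adjusted p ranged from 0.0088 with voom to 0.396 over the alternatives. *Plxnb2*, which binds *Sema4c*, had overlapping groups at 47.5 and 41.1 FPKM in WT against 47.1 and 43.2 FPKM in TG. *Plxna2*, *Plxna3* and *Plxnd1* had log2 fold changes of -0.04, 0.15 and -0.39. *Plxna2* and *Plxnd1* lay near the level required for a test. *Plxnd1* stood at 0.532 and 0.809 FPKM in WT against 0.521 and 0.268 FPKM in TG, and voom put its log2 fold change at -0.90. *Plxna2* stood at 0.495 and 0.596 FPKM in WT against 0.647 and 0.399 FPKM in TG. Over the 9 plexins, the sum was 82.9 ± 3.10 FPKM in WT and 71.3 ± 2.20 FPKM in TG (SD, n = 2 each), and the A class alone went from 32.6 ± 1.42 to 22.9 ± 0.226 FPKM.

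Among the membrane-bound semaphorins 5 were tested. *Sema4b* stood at 2.10 and 4.51 FPKM in WT against 5.50 and 5.62 FPKM in TG, with a limma adjusted p of 0.230. Most of its fold change came from WT 1: without that library the log2 value was 0.27, and with all 4 it was 0.75. *Sema4c*, a ligand of *Plxnb2*, had 6.25 and 5.08 FPKM in WT against 3.68 and 4.43 FPKM in TG. *Sema7a*, which is lipid-anchored and binds integrins and *Plxnc1*, had 0.805 and 0.781 FPKM in WT against 1.6 and 1.0 FPKM in TG. *Sema5a* and *Sema6c*, each the most abundant member of its class, had overlapping groups, with 1.37 and 1.72 FPKM in WT against 1.43 and 1.16 FPKM in TG for *Sema5a*, and 1.65 and 1.27 FPKM in WT against 1.56 and 2.75 FPKM in TG for *Sema6c*. All 20 semaphorins summed to 32.3 and 38.9 FPKM in WT and to 49.8 and 42.7 FPKM in TG.

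The Slit ligands *Slit2* and *Slit3* pointed in opposite directions. *Slit2* stood at 9.70 and 10.2 FPKM in WT against 17.3 and 17.0 FPKM in TG. The libraries of a genotype agreed closely, and the TG mean was 1.72 times the WT mean. Its log2 fold change was 0.75 (standard error 0.19) with a limma adjusted p of 0.0581, which was 0.0103 with voom and at most 0.231 over the alternatives. *Slit3* stood at 4.99 and 5.26 FPKM in WT against 2.11 and 2.67 FPKM in TG, 2.14 times lower by the means. The log2 fold change of *Slit3* was -0.97 (standard error 0.26) with a limma adjusted p of 0.0689, and voom gave -1.18 with an adjusted p of 0.0093, which passed the thresholds of the study, against at most 0.348 over the alternatives. *Slit1* was listed at 0 in every library.

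The ratio of *Slit2* to *Slit3* within a library was 1.94 in both WT libraries and 8.19 and 6.36 in TG 1 and TG 2. Its log2 difference of 1.89, or between 1.71 and 2.08 with 1 library left out, exceeded that of the neuropilin ratio, and this ratio too was chosen after its values had been seen. *Slit2* made up between 66.0% and 89.1% of the summed Slit level, which was 14.7 and 15.5 FPKM in WT against 19.4 and 19.6 FPKM in TG. The receptors stood low beside their ligands. *Robo1* had 1.01 and 1.80 FPKM in WT against 1.56 and 1.88 FPKM in TG, and *Robo3* had 0.623 and 0.955 FPKM in WT against 0.989 and 0.336 FPKM in TG, so both had overlapping groups. *Robo2* had 0 reads in both WT libraries and 5 and 14 reads in TG 1 and TG 2. A count of 0 allows up to 3 reads by counting error only. With each WT library set at 3 reads, the TG mean of *Robo2* was 3.23 times that of WT. The few TG reads were taken as counted, so this ratio is no lower bound. *Robo4*, the Robo of endothelial cells, was at 0.

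**Figure D4:**
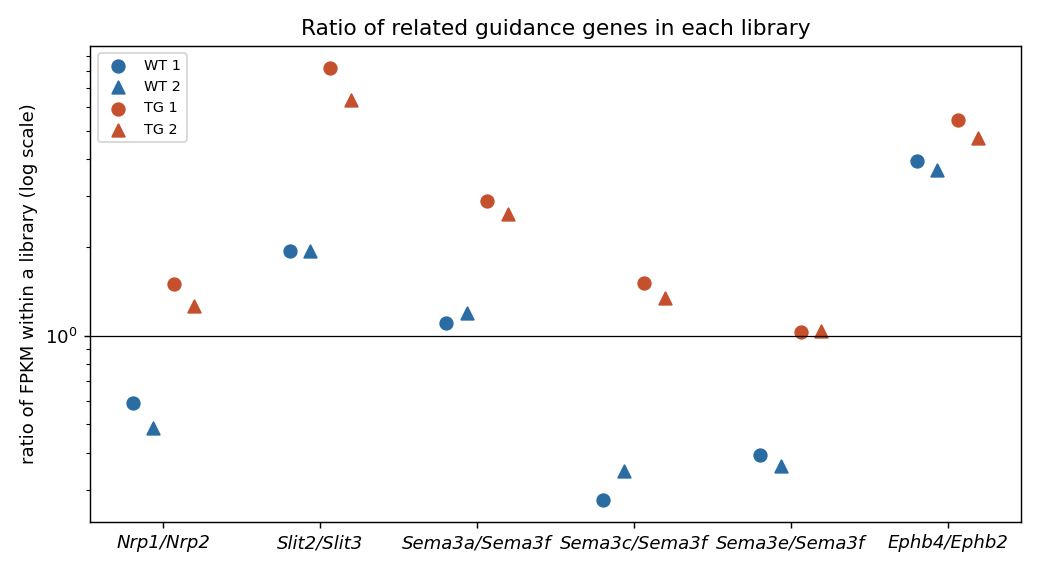
Ratio of the FPKM of 2 guidance genes within each library, on a log scale, for 6 pairs, with WT in blue, TG in red, circles for library 1 and triangles for library 2; the line marks a ratio of 1. *Nrp1* to *Nrp2* and *Sema3c* to *Sema3f* lie below 1 in both WT libraries and above 1 in both TG libraries. *Sema3e* to *Sema3f* lies below 1 in WT and close to 1 in TG, at 1.03 and 1.04. *Slit2* to *Slit3* goes from 1.94 in WT to 8.19 and 6.36 in TG. The ratios of *Plxna1* to *Plxnb2*, *Slit2* to *Robo1* and *Efnb2* to *Ephb4* were also taken and are not shown. Those of *Slit2* to *Robo1* and *Efnb2* to *Ephb4* had overlapping groups.

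The ephrin ligands summed to 103 and 96.6 FPKM in WT and to 83.5 and 111 FPKM in TG, so the TG libraries lay on either side of WT. *Efnb1*, an X-linked transmembrane ephrin, held between 41.2% and 48.6% of this sum and stood at 47.0 and 39.8 FPKM in WT against 36.7 and 53.9 FPKM in TG. *Efna4*, the most abundant A-class ephrin, had 24.2 and 18.5 FPKM in WT against 16.4 and 20.5 FPKM in TG. *Efnb2*, the ligand of *Ephb4* at the border of arteries and veins, had 8.10 and 12.3 FPKM in WT against 8.58 and 11.9 FPKM in TG. The groups of all of these overlapped. *Efna2* was the ephrin with the largest difference, at 9.75 and 10.2 FPKM in WT against 5.16 and 7.11 FPKM in TG, which gave a log2 difference of -0.68 (standard error 0.23) and a limma adjusted p of 0.138. *Efna1*, *Efna3*, *Efna5* and *Efnb3* had log2 fold changes of 0.26, 0.27, 0.15 and -0.25, none with a limma adjusted p under 0.5.

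The Eph receptors summed to 99.1 and 87.8 FPKM in WT against 85.3 and 94.8 FPKM in TG, with overlapping groups. *Epha2*, an A-class receptor also known from epithelia, held between 86.1% and 89.2% of the A-class level and stood at 41.8 and 35.8 FPKM in WT against 35.8 and 48.3 FPKM in TG. *Ephb4*, the most abundant B-class receptor, had 34.8 and 31.6 FPKM in WT against 30.2 and 26.3 FPKM in TG, which gave a log2 difference of -0.23 and a limma adjusted p of 0.551. *Ephb2*, whose WT libraries stood at 8.86 and 8.61 FPKM and whose TG libraries both stood at 5.57 FPKM, showed a log2 difference of -0.61 (standard error 0.22). Its groups lay well apart, yet the limma adjusted p was 0.153, and the alternatives ranged from 0.0194 with voom to 0.418.

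*Ephb6*, an Eph receptor that lacks kinase activity, was the other tested member beyond 1 log2 unit in the limma fit, and by the ratio of mean FPKM, 3.42, it stood above *Sema3c*. It stood at 0.322 and 0.927 FPKM in WT 1 and WT 2 and at 1.67 and 2.60 FPKM in TG 1 and TG 2. The groups did not overlap, but both genotypes spread widely, and at a log2 difference of 1.26 (standard error 0.41) the limma adjusted p was 0.120 and ranged from 0.0882 to 0.371 over the alternatives. *Epha3* had 3.30 and 2.42 FPKM in WT against 3.71 and 5.77 FPKM in TG, a log2 fold change of 0.62. *Ephb3*, at -0.24, had lower values in both TG libraries, and *Epha1*, at -0.38, had 1.49 and 1.33 FPKM in WT against 1.34 and 0.665 FPKM in TG. *Epha4*, which binds ephrins of both classes, had 1.18 and 0.597 FPKM in WT against 0.611 and 0.249 FPKM in TG (log2 fold change -0.57, standard error 0.45, limma adjusted p = 0.546).

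The 9 genes at 0 in all libraries were *Epha5*, *Epha6*, *Epha8*, *Epha10*, *Ephb1*, *Plxnb3*, *Robo4*, *Sema5b* and *Slit1*, each of which may still have had up to 3 reads by counting error. Another 12 were above 0 but under the level required for a test: *Epha7*, *Plxna4*, *Plxnc1*, *Robo2*, *Sema3g*, *Sema4a*, *Sema4d*, *Sema4f*, *Sema4g*, *Sema6a*, *Sema6b* and *Sema6d*. Their reads per library ranged from 0 to 30. *Sema4d*, the ligand of *Plxnb1*, had 8 and 11 reads in WT and 0 and 7 in TG. *Sema6b* had 0 and 10 reads in WT and 17 and 23 in TG, *Sema4f* 2 and 1 against 7 and 13, and *Sema6d* 4 and 3 against 9 and 11. *Sema4g* had 27 and 30 reads in WT against 4 and 30 in TG, and *Sema6a* 18 and 30 against 16 and 10. *Plxnc1* had 15 and 8 against 4 and 9, and *Plxna4* 5 and 10 against 4 and 0. *Epha7* had 4 and 0 against 12 and 2, *Sema3g* 1 and 7 against 1 and 0, and *Sema4a* 5 and 1 against 8 and 0. At such counts the split between genotypes rests on few reads, and WT 2 was 1.55 times as deep as WT 1.

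By position, 4 tested members lie on Chr 1 and all had negative log2 fold changes: *Epha4* (-0.57), *Nrp2* (-0.57), *Sema4c* (-0.43) and *Plxna2* (-0.04). The value of *Plxna2* had a standard error of 0.44, and its sign changed with 1 library left out. Their median was -0.50, and that of the 624 other tested genes of Chr 1 was 0.045, with 338 positive and 286 negative values. None of the 4 had a limma adjusted p under 0.05, while voom gave 0.0192 for *Nrp2*. *Epha4* lay near the level required for a test, where the limma scale understates a fold change. Voom put *Epha4*, *Nrp2*, *Sema4c* and *Plxna2* at -1.02, -0.65, -0.53 and -0.17, with an adjusted p of 0.344 for *Epha4*. *Nrp2* spans chr1:62703285-62818695 on the + strand, and the 4 other tested genes within 1 Mb of it had 2 positive and 2 negative values. *Epha4* spans chr1:77367185-77515088 on the - strand. It lies 0.586 Mb from *Pax3*, which stood at 5.43 and 6.83 FPKM in WT against 0.383 and 0.997 FPKM in TG (log2 fold change -2.52, limma adjusted p = 0.0035). *Epha4* therefore had 1 strongly lower neighbour, while *Farsb*, the other tested gene within 1 Mb, had a log2 fold change of 0.11. *Plxna2* lies near *Cd34*, which was strongly higher, at 8.21 and 9.42 FPKM in WT against 25.1 and 26.9 FPKM in TG (log2 fold change 1.51, limma adjusted p = 0.0025), and *Cr1l*, the other tested gene within 1 Mb, was at 0.12. Of the 16 other tested genes within 1 Mb of *Sema4c*, 7 had positive and 9 negative values and none had a limma adjusted p under 0.05. The authors link the transgene to this chromosome and report clusters of repressed genes on it. *Tns1* and *Igfbp2*, which belong to such a cluster, lie 3.24 Mb from *Epha4* and 10.0 Mb from *Nrp2*. Whether these distances have a part in the negative values was not tested.

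On Chr 5 there were 6 tested members, of which *Sema3a*, *Sema3c*, *Sema3d*, *Sema3e* and *Slit2* had positive values and *Ephb4* a negative value. Their median was 0.69 against 0.069 over the 702 other tested genes of the chromosome, of which 401 had positive and 301 negative values. The 4 semaphorins lie in a row from *Sema3d* to *Sema3c*, chr5:12383385-17730268, a stretch of 5.35 Mb. The gaps between neighbours are 0.536, 0.423 and 3.32 Mb. Both other tested genes of that stretch also had positive values: *Cacna2d1* at 0.21 and *Hgf*, hepatocyte growth factor, at 1.32 with a limma adjusted p of 0.152. *Hgf* stood at 0 and 0.205 FPKM in WT against 1.24 and 0.769 FPKM in TG. *Slit2*, chr5:47983138-48307733, lies 30.3 Mb away from *Sema3c* and had no other tested gene within 1 Mb. *Sema3f* and *Sema3b*, 0.072 Mb apart on Chr 9, were at -0.53 and -0.07. *Nrp1*, chr8:128358604-128503363, had 4 other tested genes within 1 Mb, of which 3 had positive values and *Itgb1*, its neighbour, had -0.26. *Slit3*, chr11:35121224-35708507, had 4, at log2 fold changes between -0.03 and 0.21, so none of them came near its own -0.97.

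Of 71 genes that carry the signal inside the cell, 64 were tested, among them the small GTPases *Rac1*, *Rhoa* and *Cdc42*, kinases such as *Fyn* and *Rock1*, the collapsin response mediators and the Slit-Robo GTPase-activating proteins. None passed the thresholds of the study or a limma adjusted p under 0.05, with 36 positive and 28 negative values and a median log2 fold change of 0.029. Of all tested genes 57.5% had positive values. At an unadjusted p under 0.05 there were 4 positive genes, *Ngef*, *Sipa1l1*, *Rnd1* and *Rras2*, and 2 negative genes, *Mical2* and *Dpysl3*, of the 64, which are smaller shares than the 12.7% and 6.88% of all tested genes. Voom gave an adjusted p under 0.05 for *Srgap3* as higher and for *Mical2* and *Dpysl3* as lower, where 3.49% and 4.33% of all genes had one, and none passed the thresholds of the study. *Dpysl3*, a collapsin response mediator, stood at 126 and 123 FPKM in WT against 82.3 and 88.1 FPKM in TG (log2 difference -0.54, standard error 0.17, limma adjusted p = 0.106). *Rnd1*, a GTPase that binds plexins, had 7.82 and 8.81 FPKM in WT against 11.8 and 14.1 FPKM in TG, with a limma adjusted p of 0.143. All 6 enzymes that shed ephrins, semaphorins or their receptors were tested, *Adam9*, *Adam10*, *Adam12*, *Adam17*, *Mmp2* and *Mmp14*, and none had a limma adjusted p under 0.05, with 1 positive and 5 negative values. *Mmp14*, a membrane-bound matrix metalloproteinase and the 1 with an unadjusted p under 0.05, stood at 274 and 307 FPKM in WT against 173 and 220 FPKM in TG, with a limma adjusted p of 0.127 and 0.0116 from voom.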

How the data were processed

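Polyadenylated RNA of immortalized male TTF was turned into strand-specific cDNA for paired-end sequencing. Alignment to mm10 and counting per gene were done by the authors with Rsubread, and they deposited FPKM values, 1 column per library. The authors used DESeq for their own comparison. Versions are not given in the sources used here. Libraries were grouped by their labels.

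Limma 3.58.1 (R 4.3.3; lmFit, then trended eBayes) compared TG with WT on log2(FPKM + 0.5) over 11524 genes (mean FPKM of 0.5 or more), with Benjamini-Hochberg adjustment over all of them. A fold change on this scale understates that of low genes. Calls needed an adjusted p under 0.01 and a 1-unit log2 difference. Because the values of 1 gene in different libraries relate as whole numbers, its reads could be worked out, for 15528 of the 15530 genes above 0 (in 756 of them the exonic length fixed a shared factor). The recovered reads went to limma's voom method with median-ratio size factors. Reads give counting error only. The fits were tested on simulated reads, and the recovery on simulated FPKM of full precision with the exact gene lengths supplied. Values rounded to fewer digits, as in part of the deposited rows, and inexact lengths were not simulated. Positions and exon overlaps came from GENCODE M21 (GRCm38, the assembly of mm10), promoters from RefSeq.

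The members and lists were chosen with earlier results of these data known. Every gene that fitted the symbol rule may be named; of the pathway lists, genes with an adjusted p under 0.05 were named with values; *Pax3* was named as the neighbour of *Epha4*, and other neighbours, and pathway genes with a higher p, were chosen after their values were seen. Other settings tried were pseudocounts of 1 and 0.1, a test of all genes above 0 or of those with a mean of at least 1 FPKM, untrended eBayes, scaling to the upper quartile, quantile normalization, voom, a replicate block, other thresholds and each library left out in turn.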

Additional observations from a re-analysis of the deposited data

How the results depend on the processing

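No guidance gene passed the thresholds of the study as higher or lower, except 1 higher and 1 lower with voom and 1 higher at an adjusted p under 0.05. The count of all tested genes that passed as higher was 70, and it was 0 with all genes above 0, 3 without a variance trend, 124 with voom, 229 at an adjusted p under 0.05 and between 0 and 66 with 1 library left out. The count that passed as lower was 54, and it was 1, 6, 149, 121 and between 1 and 47 in the same order. The 2 guidance genes higher at an adjusted p under 0.05 became 1 with a pseudocount of 0.1, upper-quartile scaling or quantile normalization, 0 with all genes above 0 or no variance trend, and between 0 and 1 with 1 library left out, and the 0 lower became 5 with voom. Among the other guidance ligands and receptors and the pathway genes together, the count passing the thresholds went from 0 to 1, which was *Plxdc2*, with a pseudocount of 1, a mean of at least 1 FPKM, upper-quartile scaling, voom or an adjusted p under 0.05. Upper-quartile scaling moved the log2 ratio of the A-class plexin sum from -0.51 to -0.58 and that of the Slit sum from 0.37 to 0.30.

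Of 501 log2 fold changes of guidance genes under an alternative, 455 kept their sign and side of an adjusted p of 0.05. Another 16 lost an adjusted p under 0.05, 6 gained it and 24 changed sign, in 10 genes. The 16 losses all belonged to *Sema3c* and *Nrp1*, the only genes under 0.05 in the main limma fit, with 13 alternatives each. The other genes had no such call to lose, so most of the 455 say nothing on how stable these calls were. With upper-quartile scaling, quantile normalization and voom, *Efnb1* was at -0.028, -0.062 and -0.021, *Efnb2* at -0.048, -0.048 and -0.079, and *Plxnb2* at -0.039, -0.071 and -0.03. In the main fit they were at 0.040, 0.017 and 0.029. The median over all tested genes was 0.071 in the main fit and 0.0071, -0.013 and 0.011 with these settings, in the same order. With 1 library left out, *Efna3* ranged from -0.22 to 0.76, *Efnb1* from -0.23 to 0.31, *Efnb2* from -0.27 to 0.30, *Efnb3* from -0.54 to 0.026, *Epha2* from -0.11 to 0.32, *Plxna2* from -0.22 to 0.14, *Plxnb2* from -0.074 to 0.13, *Robo1* from -0.059 to 0.55, *Robo3* from -0.61 to 0.22 and *Sema3b* from -0.23 to 0.093. The cause was not tested.

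Same-numbered libraries did not deviate together (correlation of deviations -0.028 across 11524 genes, which are not independent), so the numbers were not taken as pairs. With the replicate number as a block, 12 genes passed as higher and 8 as lower, 0 guidance genes had an adjusted p under 0.05, and the p of *Sema3c* was 0.0904 and that of *Nrp1* 0.121. With 1 library left out, the lone library of its genotype was assumed to vary like the others.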

Other observations

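Other guidance ligands and receptors, outside the families above, were measured as 25 genes, of which 12 were tested and 5 were listed at 0. The rest lay above 0 but under the level required for a test. None passed the thresholds of the study, and 2 were lower in TG at a limma adjusted p under 0.05. At that level 1.54% of all tested genes were lower and 2.59% were higher. *Plxdc2*, a plexin-domain receptor known to bind pigment epithelium-derived factor, stood at 57.0 and 73.1 FPKM in WT against 27.3 and 30.5 FPKM in TG. It fell by 1.15 on the log2 scale (standard error 0.19) with a limma adjusted p of 0.0101, just above the threshold of 0.01, and passed with voom at 1.5e-05, while the alternatives reached 0.122. *Unc5b*, a netrin receptor that repels, stood at 55.3 and 51.2 FPKM in WT against 30.9 and 32.3 FPKM in TG. It fell by 0.74 on the log2 scale (standard error 0.17, limma adjusted p = 0.0414), and over the alternatives the adjusted p lay between 0.0019 and 0.177. Both stood above every semaphorin and Slit in WT. Of the genes under the level required for a test, *Unc5c* had 0 and 1 reads in WT against 22 and 18 in TG. *Plxdc1* had 0 and 6 reads in WT against 8 and 16 in TG, and the groups of the others at that level overlapped. The netrins were lower in level: *Ntn1* had 7.09 and 5.99 FPKM in WT against 5.55 and 6.18 FPKM in TG, and *Ntn4* 3.88 and 4.50 FPKM in WT against 5.26 and 5.63 FPKM in TG. *Dcc*, the classical netrin receptor, had at most 5 reads in any library, and its relative *Neo1* had 7.09 and 11 FPKM in WT against 7.75 and 9.58 FPKM in TG.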
